A study of Mus musculus with 4 samples.

Results

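The genes described here are those of the unfolded protein response and the chaperones of the endoplasmic reticulum (ER), taken from a list of 36 genes by the symbol that the platform annotation gives each row of the value table. The table named 34 of the 36, on 35 probe sets, among 19505 named genes. Ddit3 had 2 probe sets, and no probe set was named here for Manf or Pdia4. RNA came from the brain cortex of SAMP8 males. SAMP8 is an inbred mouse strain of accelerated ageing. From the age of 7 months each mouse was kept alone for 4 months, and treatment began at 11 months of age and went on for 1 month. The TCQA group was given TCQA, a compound named in the labels by this abbreviation, by mouth at 5 mg/kg each day. The control group was given MilliQ water. Each group had 2 arrays, of the Clariom S mouse type, and the labels do not say whether these came from separate mice, so a p-value reflects only how these arrays vary, in part perhaps for technical reasons. Whole cortex was used, so fewer cells of a type and less RNA per cell cannot be told apart.

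The ER folds the proteins that a cell secretes or places in its membranes. When unfolded proteins collect there, the sensors IRE1, PERK and ATF6 in the ER membrane start the unfolded protein response. IRE1 splices the Xbp1 mRNA into one that encodes an active transcription factor. PERK phosphorylates the initiation factor eIF2 alpha, which slows translation and favours that of Atf4, and ATF6 is cut in the Golgi to release a transcription factor. Their targets are chaperones, disulphide isomerases and the machinery of ER-associated degradation, which returns misfolded proteins to the cytosol for the proteasome. The array measures transcript levels only, so neither the splicing of Xbp1, nor the phosphorylation of PERK, nor the cutting of ATF6 was read.

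ATF6 and spliced XBP1 act through the ER stress element (ERSE), in which a CCAAT box and a CCACG box lie 9 bases apart. The promoters of 3 chaperone genes that carry it are shown because the element joins the sensors to the genes measured. Each is the 250 bases before the RefSeq start in build GRCm38.p6, 5′ to 3′ on the gene's strand, with the 2 boxes of the element in capitals.
Hspa5, chr2:34771840-34772089, plus strand: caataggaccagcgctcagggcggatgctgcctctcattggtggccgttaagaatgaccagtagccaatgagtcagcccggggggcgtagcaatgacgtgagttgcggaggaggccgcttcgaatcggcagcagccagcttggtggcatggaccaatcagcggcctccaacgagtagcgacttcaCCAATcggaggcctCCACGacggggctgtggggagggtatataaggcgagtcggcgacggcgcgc
Hsp90b1, chr10:86705445-86705694, minus strand: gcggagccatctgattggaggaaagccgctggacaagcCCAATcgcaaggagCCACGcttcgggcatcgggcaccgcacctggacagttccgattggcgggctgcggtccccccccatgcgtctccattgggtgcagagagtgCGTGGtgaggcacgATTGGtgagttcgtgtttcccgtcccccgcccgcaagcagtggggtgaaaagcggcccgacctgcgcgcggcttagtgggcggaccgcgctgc
Calr, chr8:84846932-84847181, minus strand: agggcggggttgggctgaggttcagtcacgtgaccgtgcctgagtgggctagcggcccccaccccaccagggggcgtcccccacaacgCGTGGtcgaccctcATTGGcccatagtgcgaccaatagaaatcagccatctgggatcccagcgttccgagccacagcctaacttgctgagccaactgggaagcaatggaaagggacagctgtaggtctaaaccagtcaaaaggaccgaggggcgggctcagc
In Hspa5 the element in capitals began 65 bases before the start. Hsp90b1 held 2, which began 212 and 107 bases before it, the nearer in reverse orientation. In Calr it lay 162 bases before the start, also reversed.

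Exact matches to CCAAT, 9 bases of any kind and CCACG, on either strand, stood in 37 of 32851 RefSeq promoters of this length, or 0.113%. Counted by gene, this was 35 of 27025, or 0.13%. A match stood in 9 of the 31 member genes with a promoter in that table, or 29.0%. The matches of the other 6 genes were as follows, with the 9 spacer bases in lower case.
Canx: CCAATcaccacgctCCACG
Creld2: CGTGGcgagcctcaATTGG
Derl3: CGTGGgacttccccATTGG
Dnajc3: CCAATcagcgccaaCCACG
Pdia6: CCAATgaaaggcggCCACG
Syvn1: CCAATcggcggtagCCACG
Matches began between 212 bases (in Hsp90b1) and 44 bases (in Syvn1) before the start. Derl3 and Creld2 held the element in reverse orientation. The amino acid response element through which ATF4 acts was searched as TGATGNAA on either strand. It stood in 3.45% of promoters and, counted by gene, in 3.91%. Among the 31 member genes it stood in 3 (9.68%), Asns, Chac1 and Herpud1, none of which had an ERSE match. Asns is the gene in which this element is best known. Its promoter is shown with the match in capitals, beginning 23 bases before the start.
Asns, chr6:7693210-7693459, minus strand: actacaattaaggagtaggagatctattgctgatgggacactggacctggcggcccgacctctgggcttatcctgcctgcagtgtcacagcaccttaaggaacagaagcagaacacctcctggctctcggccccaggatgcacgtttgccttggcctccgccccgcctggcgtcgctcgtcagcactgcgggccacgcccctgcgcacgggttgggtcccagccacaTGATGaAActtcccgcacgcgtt
A match is a description of letters and not a measured binding site. Only exact letters were searched, so a promoter may hold an inexact form of either element that was not counted.

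TCQA was compared with control to see which transcripts of the cortex differed after the daily dose. Immediate early transcripts were mostly lower with TCQA and highest on control replicate 1, and choroid plexus transcripts differed widely between the control arrays. Both are given at the end. Members whose difference changed most without control replicate 1, in either direction, are given without it too. Among the members the largest differences were in Xbp1 and Derl2, both higher with TCQA, followed by Hspa5, the ER chaperone BiP. After Benjamini-Hochberg adjustment over the 22206 gene probe sets, 0 of the 35 were past 0.05 in limma (smallest adjusted p = 0.787), as were 0 of 22206 in all. At an unadjusted limma p under 0.05 there were 2 of 35 member probe sets, both higher, where 6.24% of all gene probe sets were past it, 3.38% in the higher direction and 2.86% in the lower. The members' share was thus near the background. Leaving out 1 array took the Xbp1 difference as low as 0.48 and that of Derl2 as low as 0.56, both without TCQA replicate 1. The depositors' criterion, which also asks for a fold change over 2, was met by 0 members and by 0.374% of all probe sets. The mean was higher with TCQA for 23 of the 35 probe sets, against 51.1% of all. Their median difference was 0.15 on the log2 scale, beside 0.01 over all genes.

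**Figure D1:**
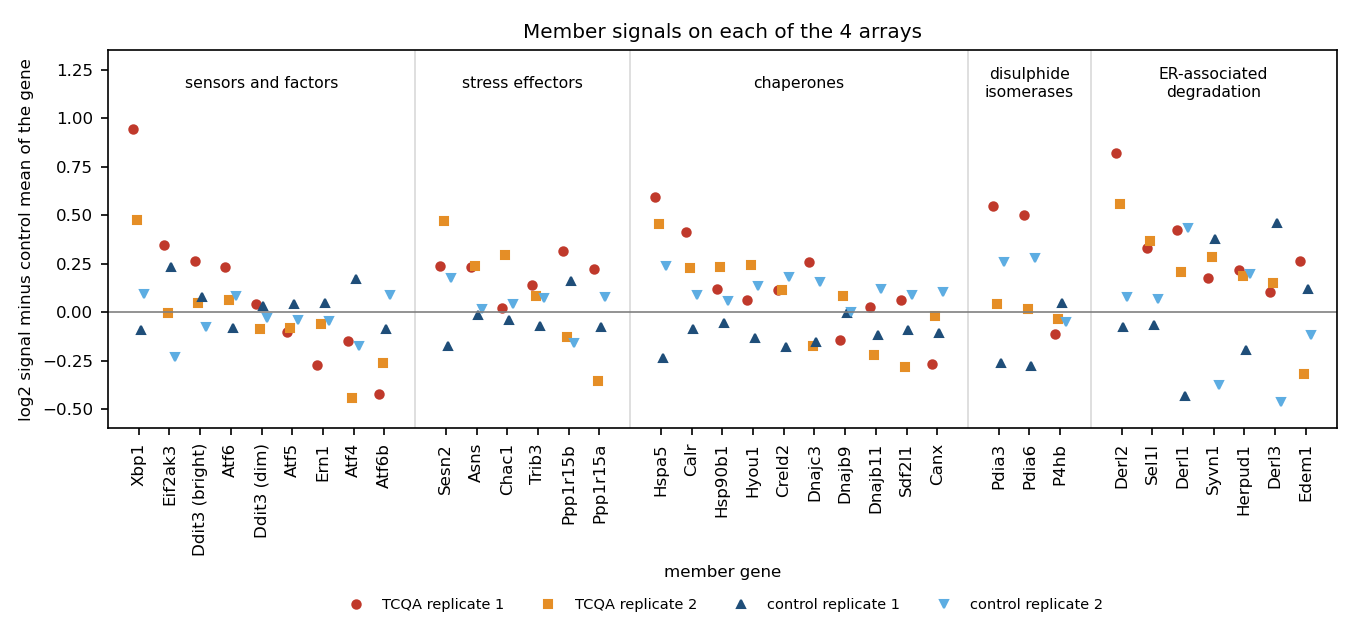
Log2 signal of each member probe set on each of the 4 arrays, minus the mean of its 2 control arrays (vertical axis), with genes along the horizontal axis grouped by role. Xbp1, Derl2 and Hspa5 have both TCQA arrays above both control arrays, while for Derl1 and Pdia3 the control arrays lie on both sides of TCQA replicate 2.

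The precision set what could be seen. Over all genes the standard error of a difference had a median of 0.20 on the log2 scale, and the 95% confidence interval of a member reached 0.47 to either side at the median. For 31 of the 35 member probe sets the interval lay within 1 on the log2 scale in both directions, as for 19192 of all 22206. A doubling or halving of the mean signal lay outside those intervals. The exceptions among the members were Xbp1, Derl2, Hspa5 and Derl1, whose upper bounds were 1.25, 1.15, 1.06 and 1.06. The 31 include the 6 that lay below the median negative control in both groups, where the size of a difference is less certain. The arrays of the groups did not overlap for 12 member probe sets, of which TCQA was the higher group in 9 and the lower in 3. Over all probe sets the share was 36.6%, with 18.9% higher and 17.8% lower.

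The genes of the 3 sensors each differed by 0.17 or less in either direction. Ern1, which encodes IRE1, had log2 signals of 9.002 and 9.21 on the TCQA arrays and 9.32 and 9.23 on the control arrays. Its TCQA arrays were both just below the controls, with a difference of -0.17 (SE 0.18, limma adjusted p = 0.892). Eif2ak3, which encodes PERK, was at 10.85 and 10.50 with TCQA and 10.74 and 10.27 in control. The groups overlapped, replicate 2 was the lower array of each, and the difference was 0.17 (SE 0.24). Atf6 was at 13.17 and 13.00 with TCQA and 12.86 and 13.02 in control, again overlapping, with a difference of 0.15 (SE 0.18). Its paralogue Atf6b had both TCQA arrays, at 10.94 and 11.10, below the control arrays, at 11.27 and 11.45. That difference of -0.34 (SE 0.18, 95% confidence interval -0.79 to 0.10) was the most negative of any member.

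Of the transcription factors downstream of the sensors, Xbp1 stood apart. It was at 12.88 and 12.41 with TCQA and at 11.84 and 12.03 in control, with no overlap and TCQA replicate 1 well above the other arrays. The mean was 1.64-fold higher, a difference of 0.71 (SE 0.22, 95% confidence interval 0.17 to 1.25, limma adjusted p = 0.787). A larger absolute difference was seen in 2.21% of all probe sets. Without TCQA replicate 1 the Xbp1 difference was 0.48, and it was 0.95 without TCQA replicate 2. Atf4, the factor of the integrated stress response, leaned the other way, at 11.45 and 11.16 with TCQA and 11.77 and 11.43 in control. Its groups overlapped and the difference was -0.30 (SE 0.21, limma adjusted p = 0.85). Without control replicate 1 the Atf4 difference was -0.12, and it was -0.47 without control replicate 2. Atf5, a related factor that is translated under the same conditions, was at 6.82 and 6.84 with TCQA and 6.96 and 6.88 in control. Ddit3, which encodes the pro-apoptotic factor CHOP, was at 9.69 and 9.48 with TCQA and 9.51 and 9.35 in control on its brighter probe set. The other Ddit3 probe set, at 8.71 and 8.58 against 8.70 and 8.64, differed by -0.03 (SE 0.17), so the 2 probe sets did not share a sign.

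The effectors of the PERK branch included several dim genes. Sesn2, an inhibitor of mTORC1 signalling, was at 4.24 and 4.47 with TCQA and 3.83 and 4.18 in control. Its difference of 0.35 became 0.18 without control replicate 1 and 0.53 without control replicate 2. Chac1, which degrades glutathione, was at 5.37 and 5.64 against 5.30 and 5.39. Both groups of Sesn2, Chac1, Trib3, Ppp1r15a, Atf5 and Derl3 lay below the median negative control probe set, which was 7.23 averaged over the arrays, so the size of their differences is less certain. Asns, the ATF4 target that makes asparagine and whose promoter is shown above, was bright and close within each group. It was at 14.20 on each of the TCQA arrays and at 13.95 and 13.98 on the control arrays, with no overlap and a difference of 0.23 (SE 0.17, 95% confidence interval -0.18 to 0.65). Trib3, a pseudokinase induced by CHOP, differed by 0.11. Ppp1r15a and Ppp1r15b, the regulatory subunits through which eIF2 alpha is dephosphorylated, differed by -0.07 and 0.09.

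The chaperone with the largest difference was Hspa5, which binds the sensors and keeps them inactive in the absence of stress. It was at 15.54 and 15.40 with TCQA and 14.71 and 15.18 in control. The groups did not overlap, and control replicate 1 lay furthest from the others. The mean was 1.44-fold higher, a difference of 0.52 (SE 0.22, 95% confidence interval -0.01 to 1.06, limma adjusted p = 0.799). Without control replicate 1 it was 0.29, and 0.76 without control replicate 2. Calr, the lectin chaperone calreticulin, was at 15.90 and 15.72 with TCQA and 15.40 and 15.58 in control. Its arrays did not overlap either, with a difference of 0.32 (SE 0.18). Hsp90b1, the ER member of the HSP90 family, was at 15.16 and 15.28 against 14.99 and 15.10, with a difference of 0.18 (SE 0.18). Hyou1, a large HSP70-like nucleotide exchange factor of BiP, was at 12.18 and 12.37 against 11.99 and 12.26, with overlapping groups. Its difference of 0.15 became 0.018 without control replicate 1.

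Other chaperones and co-chaperones differed less. The DnaJ proteins Dnajb9, Dnajb11 and Dnajc3, which hand clients to BiP, differed by -0.03, -0.10 and 0.04. Canx, the membrane-bound lectin chaperone calnexin, differed by -0.15, the opposite sign to its soluble partner Calr. Sdf2l1, found with BiP in chaperone complexes, differed by -0.11 and Creld2, a secreted ER stress protein, by 0.11. Without control replicate 1 the Creld2 difference was -0.06 and that of Dnajc3 -0.11. Among the 10 chaperone and co-chaperone probe sets 6 had a higher mean with TCQA, and their median difference was 0.08.

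The disulphide isomerases, which form and rearrange disulphide bonds, varied at least as much within the groups as between them. Pdia3, the partner of calnexin and calreticulin, was at 13.47 and 12.97 with TCQA and 12.66 and 13.18 in control. Pdia6 followed the same order of arrays, at 12.18 and 11.69 with TCQA and 11.40 and 11.95 in control. For both, TCQA replicate 1 was the highest array, control replicate 1 the lowest, and the groups overlapped. The differences were 0.30 (SE 0.27) for Pdia3 and 0.26 (SE 0.27) for Pdia6. Without control replicate 1 Pdia3 differed by 0.0354 and Pdia6 by -0.0164, and without TCQA replicate 1 by 0.04 and 0.02. Without control replicate 2 they differed by 0.56 and 0.54, and without TCQA replicate 2 by 0.55 and 0.50. P4hb, the founding member of the family, was at 9.69 and 9.77 against 9.85 and 9.75, a difference of -0.07 (SE 0.17).

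Among the genes of ER-associated degradation 6 of the 7 had a higher mean with TCQA, with a median of 0.23. Derl2, a derlin that forms part of the channel for retrotranslocation, was at 10.12 and 9.86 with TCQA and 9.22 and 9.37 in control. The groups were separated by more than either pair of arrays spanned. The mean was 1.61-fold higher, a difference of 0.69 (SE 0.19, 95% confidence interval 0.23 to 1.15, limma adjusted p = 0.787). A larger absolute difference was seen in 2.47% of all probe sets, and the value ran from 0.56 without TCQA replicate 1 to 0.82 without TCQA replicate 2.

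The arrays of its paralogues were spread more widely. Derl1 was at 11.52 and 11.31 with TCQA and 10.67 and 11.53 in control, where control replicate 1 lay far below the rest. The Derl1 difference of 0.32 (SE 0.31) became -0.12 without control replicate 1 and 0.75 without control replicate 2. Derl3 was at 4.56 and 4.61 against 4.92 and 4.00, with the control arrays on either side of the TCQA arrays. Its difference of 0.13 became 0.59 without control replicate 1 and -0.33 without control replicate 2. Sel1l, the adaptor of the ubiquitin ligase HRD1, was at 11.98 and 12.02 with TCQA and 11.58 and 11.72 in control. Its groups did not overlap, and the difference was 0.35 (SE 0.17, 95% confidence interval -0.07 to 0.77, limma adjusted p = 0.809). Syvn1, which encodes HRD1 itself, was at 8.10 and 8.21 against 8.30 and 7.55. There the control arrays again lay on both sides, and without control replicate 2 the sign turned, from 0.23 to -0.15. Without control replicate 1 the Syvn1 difference was 0.61. Herpud1, a membrane protein of the same ligase complex, differed by 0.20 (SE 0.20), or 0.0037 without control replicate 1, and Edem1, a lectin-like mannosidase protein, by -0.03 (SE 0.25).

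**Figure D2:**
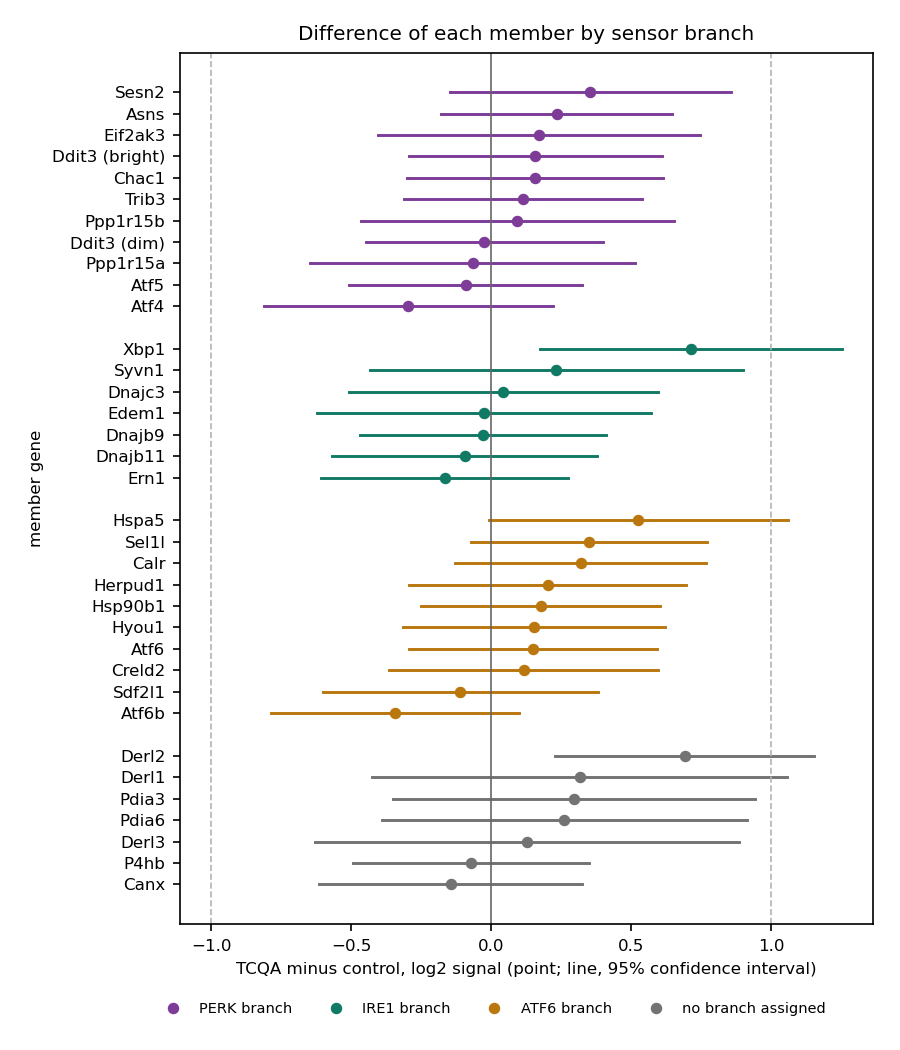
TCQA minus control difference of each member probe set in log2 signal (horizontal axis; point, difference; line, 95% confidence interval from limma), with genes on the vertical axis grouped by sensor branch and dashed lines at a 2-fold change. The intervals of Xbp1 (0.17 to 1.25) and Derl2 (0.23 to 1.15) do not include 0, and that of Hspa5 begins at -0.01.

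The 3 sensor branches were then set side by side. Each member was given to a branch from general knowledge, although ATF6 and XBP1 share many targets, and 7 were given to none. Xbp1 was given to IRE1, which splices its mRNA. That splicing was not read, so the transcript level of Xbp1 is not a measure of IRE1 activity. In the ATF6 branch 8 of 10 probe sets had a higher mean with TCQA, with a median difference of 0.16 and a range from -0.34 for Atf6b to 0.52 for Hspa5. The PERK branch had 7 of 11 higher and a median of 0.11, with all 11 between -0.30 and 0.35. In the IRE1 branch 3 of 7 were higher and the median was -0.03, since its members other than Xbp1, at 0.71, lay between -0.17 and 0.23. With sensors and transcription factors left out, the medians were 0.19 for ATF6, 0.13 for PERK and -0.03 for IRE1. The branch medians were not tested against each other, and a member of one branch is not a replicate of another.

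Read array by array, the branches differed most on control replicate 1. Each probe set was set against its own mean over the 4 arrays, and the median over the branch was taken. For the ATF6 branch this position was 0.12 and 0.08 on the TCQA arrays, -0.22 on control replicate 1 and 0.03 on control replicate 2. The PERK branch lay at 0.09 and -0.04 with TCQA and 0.00 and -0.02 in control. The IRE1 branch lay between 0.01 and 0.08 on all 4 arrays. The lowest signal came from control replicate 1 in 8 of the 10 ATF6-branch probe sets and in 17 of the 35 members (48.6%), against 27.1% of all gene probe sets. This was not particular to the members. The share was 40% over the 4 lists of neighbouring genes read below, and 46.9% among their folding and glycosylation genes. All 10 ATF6-branch probe sets were higher on control replicate 2 than on control replicate 1, as were 51.8% of all probe sets. Without control replicate 1 the ATF6 median was 0.04 with 7 of 10 higher, and the median of all members was 0.04 with 21 of 35 higher. The highest signal came from TCQA replicate 1 in 16 of the 35 (45.7%, against 26.4% of all), and without that array the median of the members was 0.06.

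**Figure D3:**
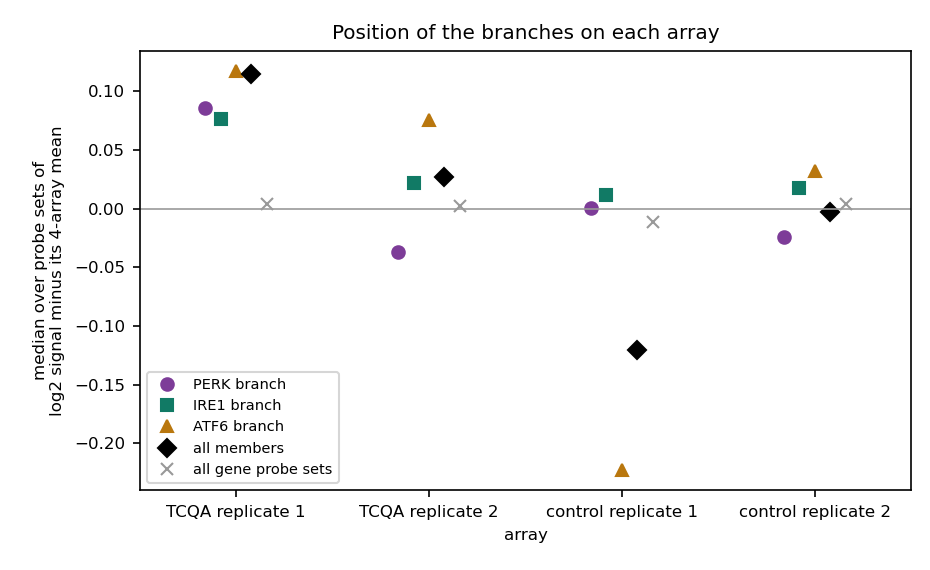
Median position of each branch on each array (vertical axis: log2 signal minus the probe set's mean over the 4 arrays; horizontal axis: the 4 arrays), with all members and all gene probe sets for comparison. The ATF6 branch drops to -0.22 on control replicate 1, while the median of all gene probe sets lies at -0.01 there.

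Members with an ERSE match in the promoter had a higher mean with TCQA in 8 of 9 cases, Canx being the exception, with a median difference of 0.18. Among members with a promoter and no match 11 of 22 probe sets were higher, with a median of 0.04. Xbp1 and Derl2, the members with the largest differences, are in this second group, and Hspa5, the next in size, is in the first. Of the 9 with a match, 5 were lowest on control replicate 1, and without that array, an alternative chosen after seeing the data, 5 of 9 were higher, with a median of 0.12. Without it 13 of the 22 with no match were higher, with a median of 0.02. The 3 members with a match to the amino acid response element had a higher mean with TCQA, by 0.16 for Chac1, 0.20 for Herpud1 and 0.23 for Asns. All 3 were lowest on control replicate 1, and without that array 3 of 3 were higher, with a median of 0.11 and Herpud1 at 0.0037. Among members with a promoter and no such match 16 of 28 probe sets were higher, with a median of 0.11. Outside the members, 279 of 544 probe sets of genes with this match were higher (51.3%), with a median of 0.01. Over all genes with a promoter 51.2% were higher and the median was 0.01.

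**Figure D4:**
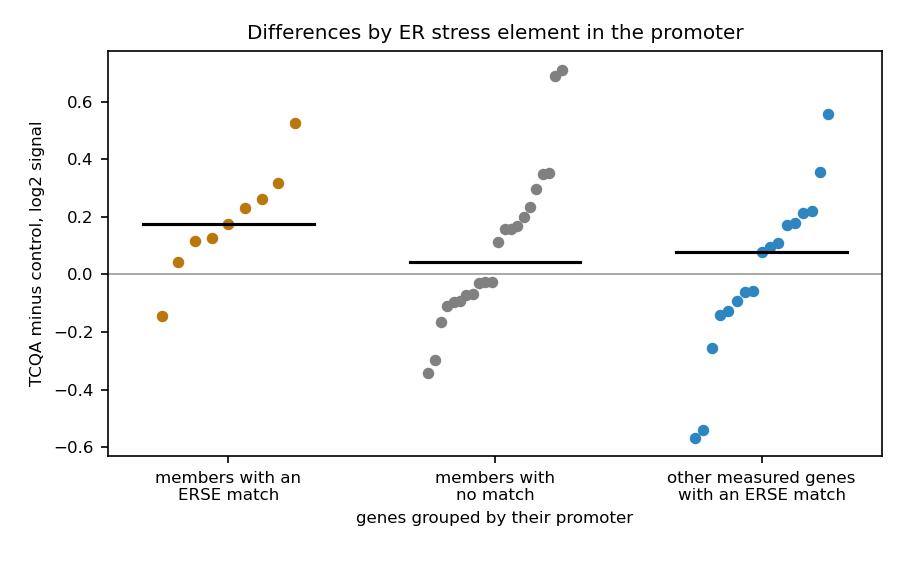
TCQA minus control difference in log2 signal (vertical axis) of genes grouped by an exact ERSE match in the promoter (horizontal axis). Points are probe sets in rising order and bars are medians, of 0.18 for the 9 members with a match, 0.04 for the 22 member probe sets without one and 0.08 for the 17 other measured genes with one.

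Genes that work beside the members were read from 4 lists. Of 35 measured regulators of the unfolded protein and integrated stress responses, 3 had an unadjusted limma p under 0.05 and a higher mean with TCQA, and 0 a lower one, where 3.38% of all gene probe sets were higher and 2.86% lower at that threshold. The list median was 0.03. Slc7a11, the cystine transporter that ATF4 induces, was at 11.46 and 11.19 with TCQA and 10.58 and 10.68 in control, a difference of 0.69 (SE 0.19, limma adjusted p = 0.787). Eif2b1, a subunit of the exchange factor that phosphorylated eIF2 inhibits, differed by 0.43 (SE 0.17). Eif2ak2, the kinase PKR, differed by 0.62 (SE 0.25), and Slc7a5, an amino acid transporter, by 0.49 (SE 0.21).

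In the other lists 0 genes had an unadjusted limma p under 0.05 in either direction. Folding and glycosylation genes had 21 of 32 higher and a median of 0.11, with Hspa13, an ER-associated HSP70 protein, at 0.42 (SE 0.19) and Fkbp2, an ER prolyl isomerase, at 0.37 (SE 0.21). The further genes of ER-associated degradation leaned the opposite way to the members of that role, with 7 of 19 higher and a median of -0.13. Man1b1, a mannosidase that marks misfolded glycoproteins, was their first by p, at -0.36 (SE 0.21). Genes of translocation into the ER had 11 of 24 higher and a median of -0.03. Ssr1, of the translocon-associated complex, differed by 0.40 (SE 0.18), Spcs2, of the signal peptidase, by 0.38 (SE 0.18) and Srpr, of the signal recognition particle receptor, by 0.37 (SE 0.18).

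The arrays also differed in other transcripts. Correlations between arrays across genes were 0.991 to 0.993, and neuron, astrocyte and oligodendrocyte markers were all above the median negative control in at least 1 group. Immediate early genes, read from 20 probe sets, were highest on control replicate 1 for 18. Fos was at 8.23 and 8.10 with TCQA and 10.01 and 8.95 in control, and Npas4 at 6.84 and 6.33 against 9.37 and 8.06. Choroid plexus markers were lowest on control replicate 1 for 6 of 8, and Ttr, which encodes transthyretin, was at 12.23 and 14.97 with TCQA and 7.49 and 16.42 in control. Their summed linear signal was 17.5% and 104% of its 4-array mean with TCQA and 2.52% and 276% in control, with Folr1, Kl, Otx2, Kcne2 and Aqp1 below the median negative control in both groups. Meningeal fibroblast markers had 10 of 10 higher with TCQA, and their summed signal was 104% and 129% with TCQA and 49.1% and 118% in control. Of these markers 8 were lowest on control replicate 1. Endothelial markers had 5 of 8 higher, with sums of 114% and 115% with TCQA and 90.2% and 81.4% in control. Aldh1a2, Col1a1 and Col1a2 of the meningeal list and Esam and Tek of the endothelial list lay below the median negative control in both groups. The part of these transcripts in the members' differences was not tested. All 6 measured markers of B cells and plasma cells, which carry much ER, were below the median negative control in both groups.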

How the data were processed

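Log2 signals of 28846 probe sets on 4 Clariom S arrays were used. Per the labels' protocols, the authors made these log2 values with SST-RMA in the Transcriptome Analysis Console (version 4.0.2), from 100 ng of RNA, and used limma with a detection cutoff of 0.05. The annotation's genome build was not stated in any source at hand. The 6640 control probe sets were left out, and 22206 entered the tests. Of these 19572 had 1 symbol and 2634 none. Levels of different probe sets were not compared.

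Groups came from the sample titles. TCQA minus control was fitted with limma 3.58.1 (R 4.3.3) by lmFit and eBayes, two-sided, with Benjamini-Hochberg adjustment over all 22206, 2 residual and 4.23 prior degrees of freedom. The code was run on data simulated from limma's own fitted model with independent errors. That run cannot show how well the model suits these arrays. Array number limits the precision.

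The members, branches and lists were chosen with earlier results of these data known, so no list has a p. Values on every array were given for the 3 sensors, Xbp1, Atf4, Ddit3, Hspa5, members with an unadjusted p under 0.05, and up to 3 further members of each role by size of difference. Of other lists, up to 4 genes by p were named, with Ttr, Fos and Npas4. Derl3 was added after its values were seen. Alternatives were median centring, quantile normalization, an intensity trend, no moderation, a filter on dim probe sets, a replicate block and leaving out each array.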

Additional observations from a re-analysis of the deposited data

How the results depend on the processing

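Of 23 named member probe sets, 18 kept their sign in every alternative that gave a difference of its own (the block, the trend and no moderation leave differences as they are, and Atf5, Chac1 and Sesn2 have none with dim probe sets left out), and the smallest limma adjusted p in any was 0.457. Leaving out 1 array turned the sign of the other 5, whose ranges were -0.0615 to 0.40 for Eif2ak3 (-0.00595 without TCQA replicate 1), -0.0895 to 0.0394 for the dimmer Ddit3 probe set, -0.0164 to 0.54 for Pdia6, -0.15 to 0.61 for Syvn1 and -0.12 to 0.75 for Derl1. Members with an unadjusted p under 0.05 numbered 0 without TCQA replicate 1, 1 without control replicate 1 (Syvn1), 2 without TCQA replicate 2 and 4 without control replicate 2. They numbered 5 with an intensity trend, which added Hspa5, Calr and Sel1l. They numbered 3 (Derl2, Xbp1 and Hspa5) with median centring, quantile normalization or dim probe sets left out. With dim probe sets left out, 8.58% of all probe sets tested were past the same threshold. The other counts given so far have no such share beside them, so they do not show a change particular to the members. Without moderation Derl2, Sel1l and Asns were past the threshold and Xbp1 was not. The cause was not tested. Leaving out 1 array, medians ran from 0.0354 to 0.22 for all members, -0.00595 to 0.22 for PERK, -0.0615 to 0.18 for IRE1 and 0.04 to 0.29 for ATF6. Probe sets past the depositors' criterion numbered 83, between 160 and 291 when 1 array was left out, 25 with no moderation, and 42 with dim probe sets left out, where fewer were tested. Same-numbered arrays hardly deviated together across genes (r = 0.05), so the numbers were not taken as pairs. With the number as a block (replicate block) 2 members were past an unadjusted p under 0.05, beside 6.42% of all probe sets. The medians were unchanged, and 92 probe sets met the criterion. Dimness limits the 6 member probe sets that lay below the median negative control in both groups.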

Other observations

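Outside the members, 17 measured genes had an exact ERSE match in the promoter, and 9 of these had a higher mean with TCQA (52.9%, against 51.2% of all genes with a promoter), with a median of 0.08. Without control replicate 1 the count was 7 of 17 and the median -0.04. They include Ero1b, the oxidase that recharges disulphide isomerases, at 0.17, Calr4, a relative of calreticulin, at 0.22 and Alg12, a mannosyltransferase of the ER, at -0.13. These 3 were named after their values were seen.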
